A study of Gallus gallus with 2 samples.

Results

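Nuclei of thymocytes of the γδ kind with transcripts of chosen mitosis genes were set against those with none detected. They came from thymus of female chickens (Gallus gallus) of 5 weeks. No treatment, strain or genotype was varied, and 2 libraries of thymus nuclei form 1 group of replicates. Thymus was flash frozen and its nuclei, not whole cells, were isolated and read with 10x Genomics 3′ droplet chemistry, in which a short random tag, the UMI, keeps copies of 1 transcript from being counted again. A nucleus was taken as γδ-like when it had at least 200 detected genes, at least 1 UMI of SOX13, a sum of at least 2 UMIs over SOX13, TARP, PDE1A, FREM1, SPAG16 and SMOC1, and no UMI of RAG1, FOXN1 or PAX5. It was placed on the cycling side when ASPM, CENPF, NUSAP1, TPX2, KIF11 and INCENP together had at least 2 UMIs, and on the resting side when they had 0. Of 10745 nuclei with at least 200 genes, 784 were γδ-like, 342 of 5171 in library 1 and 442 of 5574 in library 2. The cycling side held 224 of them (86 in library 1 and 138 in library 2) and the resting side 501 (226 and 275). The other 59 had exactly 1 UMI of the cycling genes and were on neither side. A count of 0 does not show that a cell was not dividing. Nuclei in S phase, or with cycling transcripts that were missed, can be on the resting side. When 5 S phase genes also had to be at 0, 201 of the 226 and 252 of the 275 resting nuclei remained. All 224 cycling and all 501 resting nuclei entered the sums described below.

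γδ T cells carry a receptor of γ and δ chains in place of α and β chains, and birds hold many of them. They arise in the thymus from the same early progenitors as αβ T cells, and SOX13 is a transcription factor tied to their development in mouse. αβ thymocytes divide early and again before they become double positive (CD4+ CD8+) cells, and rest while receptor genes are rearranged by RAG1 and RAG2. A dividing cell copies its DNA in S phase, checks it in G2, and in mitosis condenses its chromosomes and separates them on a spindle. Each of these steps has its own set of transcripts.

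Library 1 held 4826743 UMIs over 6564 barcodes and library 2 held 6570941 UMIs over 6050 barcodes, and 13 barcode sequences occurred in both. Of these 13, 2 were among the γδ-like nuclei of library 1 and 0 among those of library 2, and leaving them out ended no call on the genes named by rule. The summed UMIs were 138849 and 295836 in cycling and 194577 and 297003 in resting γδ-like nuclei of libraries 1 and 2. A cycling nucleus was deeper, with a median of 1278 and 1709 UMIs (796 and 1029 genes) in the 2 libraries, against 775 and 896 UMIs (524 and 592 genes) in resting nuclei. The share of nuclei in the top 6% of a simulated-doublet score was 15.1% and 22.5% on the cycling side, against 6.64% and 5.45% on the resting side. Depth and this share moved with the side, and their part in the results was not tested except where values with thinned nuclei or without these nuclei are given. Levels below are UMIs summed over the nuclei of 1 side of 1 library and divided by the total of that sum, in CPM (UMIs per 1e+06 UMIs), given for library 1 and then library 2. A level of this kind does not separate more nuclei with a transcript from more transcripts per nucleus. Changes are log2 fold changes ± SE of cycling over resting from edgeR's quasi-likelihood test with the library as a block, and adjusted p-values are Benjamini-Hochberg values over 8543 genes, with a threshold of 0.05. The test itself gives no SE. The SE here is the size of the log2 change divided by the square root of the F statistic of the test. Nothing in the labels says that the libraries came from separate birds. The p-values therefore measure only how these 2 libraries vary, which may be technical.

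The genes that chose the nuclei are given as a description, with no test. SOX13 was at 1491 and 1244 CPM in cycling nuclei and 2236 and 2431 CPM in resting nuclei. TARP, which carries the T cell receptor γ constant region, was at 1548 and 1440.0 CPM in cycling and 2554 and 2370.3 CPM in resting nuclei. PDE1A, a calmodulin-dependent phosphodiesterase, was at 792 and 666 CPM in cycling and 1326 and 1636 CPM in resting nuclei. These 3 genes, and with them FREM1 and SMOC1, were lower in CPM on the cycling side in both libraries. The gate asked the same minimum of marker UMIs of every nucleus, and resting nuclei were shallower. The choice of nuclei can therefore itself raise the CPM of these markers on the resting side, and its part was not tested. FREM1, an extracellular matrix protein, was at 180.1 and 162 CPM in cycling and 483 and 451 CPM in resting nuclei, and SMOC1, a secreted calcium-binding protein, at 562 and 500.3 CPM in cycling and 1033 and 1098 CPM in resting nuclei. SPAG16, a protein of the sperm axoneme, went the other way, at 1743 and 1585 CPM in cycling nuclei and 843 and 582 CPM in resting nuclei. All 6 genes were therefore present on both sides, and the label rested on SOX13 with at least 1 other marker UMI or a second UMI of SOX13. In other thymocyte nuclei, which were required to lack SOX13, TARP was at 546 and 632 CPM on the cycling and 416 and 376 CPM on the resting side, and SMOC1 at 71.2 and 73.1 CPM on the cycling and 93.6 and 53.6 CPM on the resting side. BLK, a Src-family kinase that γδ T cells express in mouse and that no gate used, was at 216 and 186 CPM in cycling and 493 and 515 CPM in resting γδ-like nuclei, against 47.8 and 19.2 CPM in cycling and 50.8 and 38.0 CPM in resting other thymocyte nuclei. BLK is from a list of 23 genes of γδ programmes in mammals. That list summed to 1073 and 1241 CPM in cycling γδ-like nuclei, against 992 and 815 CPM in cycling other thymocyte nuclei. On the resting side the sums were 1979 and 2175 CPM, against 1023 and 1081 CPM. These sums include BLK. In library 1 the gap between the cycling sums was smaller than the gap in BLK alone. The list as a whole thus set the cycling side apart far less than BLK did, and in library 1 its other members together did not.

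At the edge of the γδ-like gate, the 28 and 44 nuclei with a marker sum of exactly 2 had 17.9% and 25% of nuclei on the cycling side. The 53 and 57 nuclei with a SOX13 UMI and a marker sum of exactly 1, just outside the gate, had 18.9% and 22.8%. On the cycling gate, 12 and 23 γδ-like nuclei had exactly 2 UMIs of the cycling genes, 30 and 29 had exactly 1, and 53 and 85 had 5 or more.

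The share of γδ-like nuclei on the cycling side was 25.1% in library 1 (exact Clopper-Pearson 95% interval 20.6% to 30.1%) and 31.2% in library 2 (26.9% to 35.8%), a mean of 28.2% ± 4.30 (SD, n = 2). Among 4485 and 4748 other thymocyte nuclei, which had at least 200 genes and no UMI of SOX13 or of 10 genes of other cell types, the share was 21.0% (19.8% to 22.2%) in library 1 and 16.1% (15.1% to 17.2%) in library 2, a mean of 18.6% ± 3.47 (SD, n = 2). γδ-like nuclei were above other thymocyte nuclei in both libraries, but an exact permutation test cannot reach the threshold with 2 libraries. Its smallest two-sided p is 0.5 when the populations are exchanged within libraries and 0.333 when they are exchanged freely. The intervals cover counting error only.

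The excess changed with the treatment of depth. γδ-like nuclei had a median of 869 and 1069 UMIs, against 659 and 820 in other thymocyte nuclei. When each nucleus was thinned to 500 UMIs before the gates were applied and shallower nuclei were left out, 191 and 267 γδ-like nuclei remained, of which 17.3% and 18.7% were on the cycling side, against 20.3% and 12.7% of 3351 and 4124 other thymocyte nuclei. γδ-like nuclei were then below other thymocyte nuclei in library 1 and above them in library 2. Nuclei marked as macrophages had a sum of at least 2 UMIs over MARCO, STAB1, SLC40A1 and C1QC. Of them, 4 of 25 were on the cycling side in library 1, a share of 16.0% (4.54% to 36.1%) at a median of 1078 UMIs. In library 2 it was 8 of 43, a share of 18.6% (8.39% to 33.4%) at 1571 UMIs. No test was made between these nuclei and γδ-like nuclei.

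**Figure D1:**
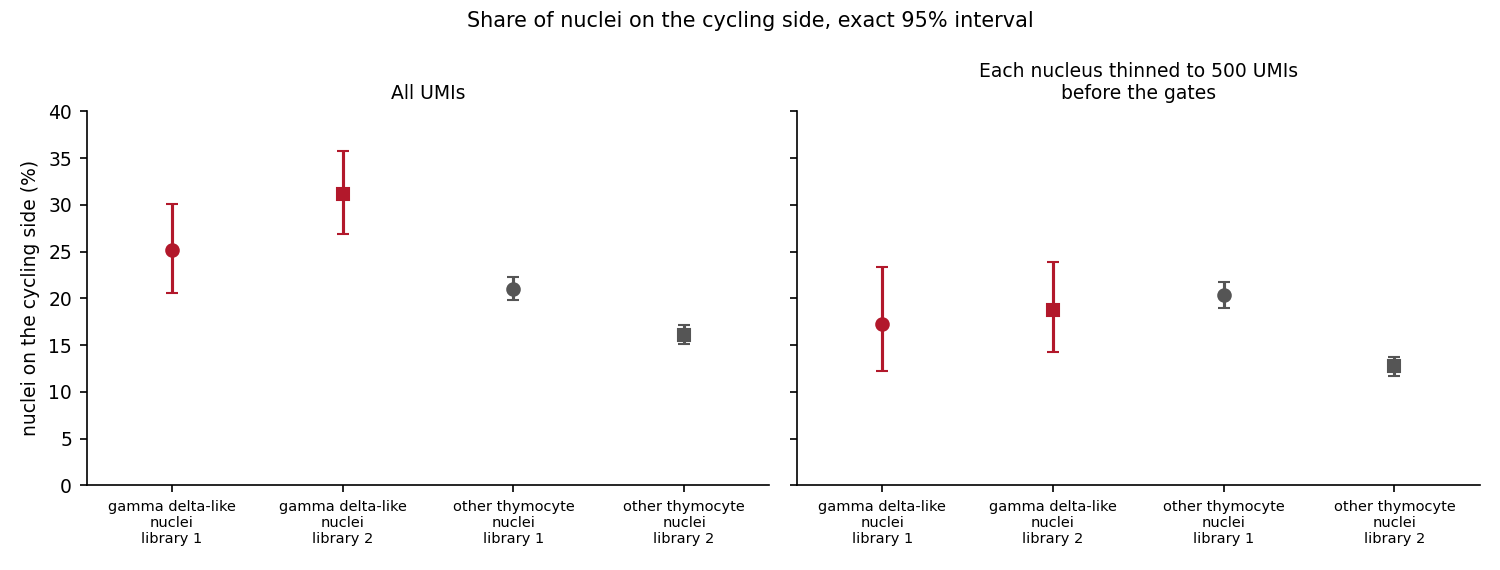
Share of nuclei with at least 2 UMIs of the 6 cycling genes (y axis, percent) in γδ-like nuclei (red) and other thymocyte nuclei (grey) of each library (circle, library 1; square, library 2), with all UMIs (left) and after thinning each nucleus to 500 UMIs before the gates (right). Bars are exact 95% intervals for counting error; the γδ-like shares of 25.1% and 31.2% stood above 21.0% and 16.1% in other thymocyte nuclei with all UMIs, and at 17.3% and 18.7% against 20.3% and 12.7% after thinning.

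Cycling γδ-like nuclei held more transcript of 43 of 45 tested mitosis genes, 10 of 39 DNA repair genes and 7 of 38 S phase genes than resting ones. Genes at a lower level in CPM included SESN3, a restraint on growth signals, and the demethylases KDM4B and KDM5B. LCP2 and PTPRC, 2 of 30 tested genes of the T cell receptor and its signalling, were also lower. A cycling nucleus held more UMIs in all, so a lower CPM is a smaller share and not necessarily fewer UMIs per nucleus. PTPRC, KDM4B and KDM5B lost their call after thinning to 500 UMIs before the gates. Of 8543 genes tested, 354 passed the threshold (4.14%), 259 higher (3.03%) and 95 lower (1.11%) on the cycling side, and all 354 had the same sign in each library. The calls were made on these same 2 libraries, so the shared sign largely follows from the call. Of the 354, 303 have a symbol and 51 have only an identifier and are not named. By CPM alone, the libraries of the 2 sides did not overlap for 19.8% of tested genes with cycling above resting and for 21.6% with cycling below resting. The genes called below passed a test on these same libraries. A lack of overlap among them is therefore a description and not further support. The sides were chosen on 6 mitotic genes of the same nuclei, so genes that vary with those in the same nuclei follow from the choice, and the mitotic genes below are a description of the cycling side.

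Of the 15 genes with a symbol that rose with the smallest p, 14 are described, and most of them act in mitosis. Positions in parentheses are on the build GRCg7b. BUB1B (chromosome 5, 782890 to 807156), a kinase of the spindle checkpoint, was at 562 and 463 CPM in cycling nuclei and 15.4 and 3.37 CPM in resting nuclei, a log2 change of 5.96 ± 0.35 (adjusted p = 4.19e-06). Both cycling libraries stood far above both resting ones. TOP2A (chromosome 27, 4414572 to 4432265), the topoisomerase that untangles chromosomes, was at 547 and 571 CPM in cycling and 51.4 and 30.3 CPM in resting nuclei (3.89 ± 0.27, adjusted p = 5.96e-06). CENPE (chromosome 4, 60508378 to 60544955), the kinetochore motor, was at 849.8 and 1011 CPM in cycling and 66.8 and 26.9 CPM in resting nuclei (4.49 ± 0.32, adjusted p = 6.25e-06). The libraries of the 2 sides did not overlap for either gene. DLGAP5 (chromosome 5, 55839378 to 55861384), which helps to assemble the spindle, was at 353 and 311 CPM in cycling and 15.4 and 6.73 CPM in resting nuclei, and TACC3 (chromosome 4, 83395462 to 83414293), another spindle protein, at 331 and 301 CPM in cycling and 20.6 and 23.6 CPM in resting nuclei. The kinesins KIF18A (chromosome 5, 4062829 to 4105911), at 468 and 443 CPM in cycling and 36.0 and 20.2 CPM in resting nuclei, and KIF20B (chromosome 6, 20204194 to 20235397), at 432 and 287 CPM in cycling and 20.6 and 6.73 CPM in resting nuclei, rose likewise, by 4.12 ± 0.31 and 4.83 ± 0.37 log2 units. SMC2 (chromosome Z, 67153026 to 67177187), a subunit of condensin, was at 720.2 and 646 CPM in cycling and 144 and 57.2 CPM in resting nuclei, with a larger gap in library 2 than in library 1.

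The remaining named genes that rose act outside the spindle or have a less settled role. BRCA1 (chromosome 27, 5148367 to 5169536), which repairs broken DNA by recombination, was at 655 and 598 CPM in cycling and 97.6 and 87.5 CPM in resting nuclei (2.79 ± 0.19, adjusted p = 5.96e-06). G2E3 (chromosome 5, 33637370 to 33662232), a ubiquitin ligase named for its expression in G2 and M phase, was at 648 and 551 CPM in cycling and 72.0 and 47.1 CPM in resting nuclei (3.40 ± 0.23, adjusted p = 5.96e-06). The 2 libraries gave nearly the same level of BRCA1 on each side. NUCKS1 (chromosome 26, 2297595 to 2312901), a DNA-binding nuclear protein, was at 994 and 777 CPM in cycling and 257 and 138 CPM in resting nuclei, and LBR (chromosome 3, 17091995 to 17113148), the lamin B receptor of the nuclear envelope, at 821 and 673 CPM in cycling and 200.4 and 192 CPM in resting nuclei. Both were well expressed in resting nuclei too and rose by 2.26 ± 0.17 and 1.94 ± 0.16 log2 units. FSTL4 (chromosome 13, 15845754 to 16032315), a follistatin-like protein, was at 663 and 699.7 CPM in cycling and 108 and 90.9 CPM in resting nuclei (2.84 ± 0.19, adjusted p = 5.96e-06). FBXO39 (chromosome 19, 10376612 to 10429743), an F-box protein, was at 648 and 497 CPM in cycling and 103 and 47.1 CPM in resting nuclei. These 14 genes kept their call under each of 15 alternative settings.

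**Figure D2:**
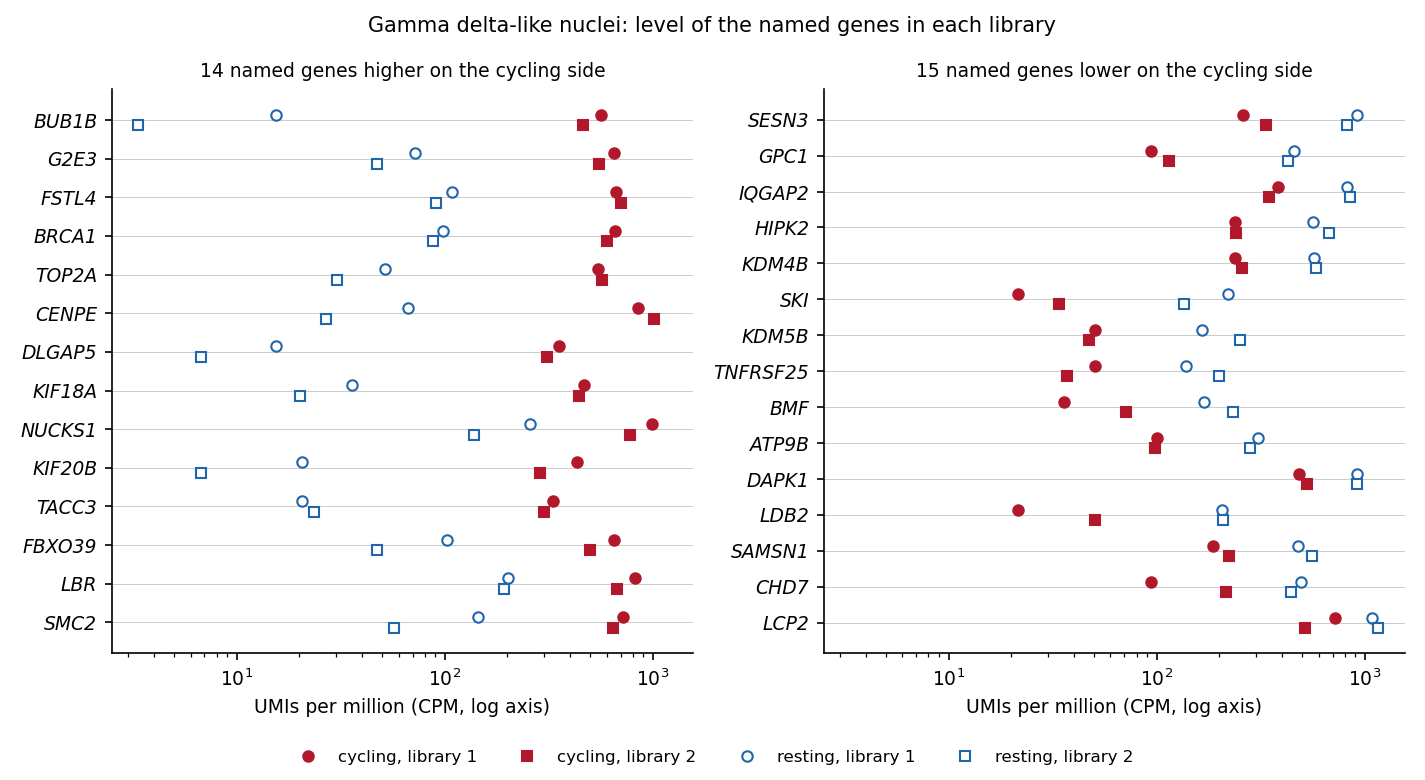
Level (x axis, CPM, log axis) of 14 named genes that were higher (left) and the 15 that were lower (right) on the cycling side, in cycling (filled red) and resting (open blue) γδ-like nuclei of library 1 (circles) and library 2 (squares). For BUB1B the cycling libraries stood at 562 and 463 CPM and the resting ones at 15.4 and 3.37 CPM, and for SESN3 at 259 and 335 against 919.9 and 825 CPM. For no gene shown did the sides overlap, which held for 19.8% (cycling above) and 21.6% (cycling below) of all genes tested.

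As a background for the lists below, 3.03% of all genes tested rose and 1.11% fell. The filter for low counts used all 8 sums, including the deeper ones of other thymocyte nuclei. This background therefore includes genes with few UMIs in γδ-like nuclei. With only the γδ-like sums, 4842 genes were tested, of which 224 were higher and 82 lower. Both are larger shares than those of the background used below. Of 57 listed mitosis genes, 45 were tested and 43 rose, with a median log2 change of 3.77 against -0.01 over all genes tested (3.69 with genes at 0 UMIs on the resting side set to a bound of 3 counts). The other 2, picked out after their values were seen, had few UMIs. MYBL2, a transcription factor of G2 and M genes, had 24 UMIs on the cycling and 3 on the resting side over both libraries, a ratio of CPM of 9.05 (95% counting interval 2.75 to 46.9) and adjusted p = 0.0641. BIRC5, the survivin subunit of the chromosomal passenger complex, had 14 UMIs on the cycling side and 0 on the resting side, where a floor of 3 counts over the group gives at least 5.28-fold higher in cycling nuclei (adjusted p = 0.151).

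Genes of DNA replication and S phase moved less. Of 44 listed, 38 were tested, 7 rose and 0 fell, and the median log2 change was 0.80. For comparison, 3.03% of all genes tested rose and 1.11% fell. UHRF1 (chromosome 28, 5277655 to 5308196), which takes part in copying DNA methylation to the new strand, was at 799 and 774 CPM in cycling and 283 and 212 CPM in resting nuclei (1.73 ± 0.16, adjusted p = 3.66e-05). POLA1, the primase-associated DNA polymerase α, was at 864 and 872 CPM in cycling and 463 and 330.0 CPM in resting nuclei (1.20 ± 0.17, adjusted p = 0.00143). Resting nuclei thus held a good part of the cycling level of both genes. The sides were chosen on mitotic genes, so the resting side can hold nuclei in S phase. The part of such nuclei in the size of these changes, and of those in DNA repair, was not tested. In an alternative setting with 5 S phase genes also at 0 on the resting side, 289 genes were higher and 105 lower, against 259 and 95 without this demand. UHRF1 and POLA1 kept their call there. That setting removes resting nuclei with S phase transcripts, so a lower resting level of genes that vary with those 5 follows from the choice. The kept calls are therefore a description. CDC45, part of the replicative helicase, was at 202 and 183 CPM in cycling and 5.14 and 40.4 CPM in resting nuclei, with most resting UMIs in library 2. ATAD2, a chromatin ATPase, was at 259 and 213 CPM in cycling and 103 and 77.4 CPM in resting nuclei, and RRM2, a subunit of ribonucleotide reductase, at 101 and 115 CPM in cycling and 25.7 and 16.8 CPM in resting nuclei. The adjusted p-values of CDC45, ATAD2 and RRM2 were 0.00283, 0.00421 and 0.00442. After thinning to 500 UMIs before the gates UHRF1 kept its call, while POLA1, CDC45, ATAD2 and RRM2 lost it, at log2 changes of 0.86 ± 0.36 for POLA1, 2.27 ± 0.94 for CDC45, 0.95 ± 0.67 for ATAD2 and 3.07 ± 1.29 for RRM2.

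In DNA repair, 39 of 43 listed genes were tested, 10 rose and 0 fell, with a median log2 change of 0.87. The shares over all genes tested were 3.03% higher and 1.11% lower. Besides BRCA1, POLQ, the polymerase of θ-mediated end joining, was at 166 and 118 CPM in cycling and 5.14 and 3.37 CPM in resting nuclei, where it had 2 UMIs in all. Its ratio of CPM was 32.8 (95% counting interval 8.68 to 277). RAD54B, a recombination ATPase, was at 129.6 and 172 CPM in cycling and 25.7 and 30.3 CPM in resting nuclei (2.48 ± 0.35, adjusted p = 0.00107). RAD21, a subunit of cohesin, was at 317 and 247 CPM in cycling and 103 and 33.7 CPM in resting nuclei (2.18 ± 0.36, adjusted p = 0.0032), and EXO1, an exonuclease, at 101 and 77.7 CPM in cycling and 5.14 and 13.5 CPM in resting nuclei (3.13 ± 0.62, adjusted p = 0.0112). The sides did not overlap for these genes, but POLQ, RAD54B, RAD21 and EXO1 lost their call after thinning before the gates, which left few UMIs. The log2 changes were then 2.57 ± 0.98 for RAD54B, 2.02 ± 0.65 for RAD21, 3.31 ± 1.66 for POLQ and 3.30 ± 1.83 for EXO1, with wider errors.

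Of 52 listed chromatin genes, 45 were tested, 9 rose and 3 fell, with a median of 0.20. Over all genes tested, 3.03% rose and 1.11% fell, and 73.2% of the genes called were higher. HMGB1, a DNA-bending protein, was at 591 and 585 CPM in cycling and 164 and 104 CPM in resting nuclei (2.22 ± 0.22, adjusted p = 6.82e-05). EZH2, the H3K27 methyltransferase of Polycomb, was at 936 and 764 CPM in cycling and 267 and 155 CPM in resting nuclei (2.08 ± 0.23, adjusted p = 1.63e-04). NSD2, an H3K36 methyltransferase, was at 346 and 321 CPM in cycling and 51.4 and 20.2 CPM in resting nuclei (3.37 ± 0.36, adjusted p = 1.20e-04). Both methyltransferases kept their call under all 15 alternatives. Among those that fell were the demethylase KDM5B and the remodeller CHD7, described next.

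The 15 named genes that fell included regulators of growth, chromatin and the T cell receptor. SESN3 (chromosome 1, 185279102 to 185324830), a sestrin that restrains mTORC1 and is a target of FOXO factors in mammals, was at 259 and 335 CPM in cycling nuclei and 919.9 and 825 CPM in resting nuclei, a log2 change of -1.47 ± 0.16 (adjusted p = 1.63e-04). GPC1 (chromosome 9, 2320445 to 2483531), a heparan sulfate proteoglycan of the cell surface, was at 93.6 and 115 CPM in cycling and 457 and 428 CPM in resting nuclei (-2.01 ± 0.23, adjusted p = 2.07e-04). Both cycling libraries lay below both resting libraries for either gene. IQGAP2 (chromosome Z, 24003163 to 24119280), a cytoskeletal scaffold, was at 382 and 348 CPM in cycling and 822 and 845 CPM in resting nuclei (-1.17 ± 0.15, adjusted p = 5.29e-04), and HIPK2 (chromosome 1, 56066902 to 56199777), a nuclear kinase of the DNA damage response, at 238 and 240.0 CPM in cycling and 565 and 670.0 CPM in resting nuclei (-1.35 ± 0.18, adjusted p = 6.74e-04). DAPK1 (chromosome Z, 41891494 to 41989841), a death-associated kinase, was at 483 and 527 CPM in cycling and 919.9 and 916 CPM in resting nuclei. LCP2 (chromosome 13, 3487818 to 3520226), the SLP-76 adaptor below the T cell receptor, was at 720.2 and 514 CPM in cycling and 1084 and 1162 CPM in resting nuclei (-0.88 ± 0.16, adjusted p = 0.00538). For these 4 genes the sides did not overlap either, which held with cycling below resting for 21.6% of all genes tested.

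Chromatin and transcription genes among the named falls were KDM4B, KDM5B, CHD7, SKI and LDB2. KDM4B (chromosome 28, 5197113 to 5275240), an H3K9 demethylase, was at 238 and 257 CPM in cycling and 570.5 and 582 CPM in resting nuclei, and KDM5B (chromosome 26, 581784 to 610225), an H3K4 demethylase, at 50.4 and 47.3 CPM in cycling and 164 and 253 CPM in resting nuclei. CHD7 (chromosome 2, 112578530 to 112708402), a chromatin remodeller, was at 93.6 and 216 CPM in cycling and 493 and 441 CPM in resting nuclei, with the larger gap in library 1. SKI (chromosome 21, 1666995 to 1766806), a repressor of TGFβ signalling, was at 21.6 and 33.8 CPM in cycling and 221 and 135 CPM in resting nuclei, and LDB2 (chromosome 4, 75557183 to 75914501), a LIM-domain binding cofactor, at 21.6 and 50.7 CPM in cycling and 206 and 209 CPM in resting nuclei. Log2 changes were -1.18 ± 0.17 for KDM4B, -2.13 ± 0.33 for KDM5B, -1.40 ± 0.25 for CHD7, -2.46 ± 0.38 for SKI and -2.32 ± 0.41 for LDB2. The other named genes that fell were TNFRSF25 (chromosome 21, 590835 to 594909), the death receptor DR3 of T cells, at 50.4 and 37.2 CPM in cycling and 139 and 199 CPM in resting nuclei, BMF (chromosome 5, 28913495 to 28936868), a BH3-only protein that promotes apoptosis, at 36.0 and 71.0 CPM in cycling and 169.6 and 232 CPM in resting nuclei, SAMSN1 (chromosome 1, 98252115 to 98402329), an adaptor of lymphocytes, at 187 and 223 CPM in cycling and 478 and 556 CPM in resting nuclei, and ATP9B (chromosome 2, 56433398 to 56601402), a phospholipid flippase, at 101 and 98.0 CPM in cycling and 308 and 279 CPM in resting nuclei. All 14 of the rises described but 6 of the 15 named falls kept their call under every alternative. Thinning before the gates ended the calls of GPC1, KDM4B, KDM5B, CHD7, TNFRSF25, SAMSN1 and ATP9B and turned SKI to 0.46 (adjusted p = 0.885), and thinning after the gates ended those of GPC1, CHD7, SKI, BMF and ATP9B. After thinning before the gates the log2 changes stood at -1.47 ± 0.46 for KDM4B, -3.37 ± 1.06 for KDM5B, -1.35 ± 0.56 for CHD7, -1.63 ± 0.50 for SAMSN1 and -1.64 ± 0.70 for ATP9B, with wider errors than with all UMIs, and at -1.08 ± 0.62 for GPC1. SESN3, IQGAP2, HIPK2, DAPK1, LDB2 and LCP2 kept their call under all 15 alternatives, with log2 changes after thinning before the gates of -3.78 for SESN3, -1.70 for IQGAP2, -2.38 for HIPK2, -1.85 for DAPK1 and -1.21 for LCP2.

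A list of 38 genes around the brake on the cell cycle did not move one way. Of 26 tested, 4 rose and 2 fell, with a median of -0.20, beside 3.03% higher and 1.11% lower over all genes tested. Those that rose include genes that push the cycle or are made during it. CDK6 (chromosome 2, 22606846 to 22740743), a kinase that drives G1 progression, was at 634 and 487 CPM in cycling and 175 and 74.1 CPM in resting nuclei (2.27 ± 0.26, adjusted p = 2.38e-04). E2F8, a repressor made late in the cycle, was at 79.2 and 112 CPM in cycling and 20.6 and 13.5 CPM in resting nuclei (2.63 ± 0.47, adjusted p = 0.00534), and RBL1, the pocket protein p107, at 281 and 193 CPM in cycling and 97.6 and 111 CPM in resting nuclei (1.14 ± 0.26, adjusted p = 0.0251). Besides SESN3, the gene that fell was CCND2 (chromosome 1, 73569617 to 73614521), a D-type cyclin and partner of CDK6, at 14.4 and 54.1 CPM in cycling and 149 and 155 CPM in resting nuclei (-1.90 ± 0.43, adjusted p = 0.0245). The other gene that rose was FOXP1, a forkhead factor of quiescent T cells in mouse, at 2261 and 2522 CPM in cycling and 1953 and 1623 CPM in resting nuclei (adjusted p = 0.035), with a log2 change of -0.10 after thinning before the gates (adjusted p = 0.917). FOXP1 kept its call under 8 of 15 alternatives. It lost the call also with only total UMIs for scaling, without the library block, with a minimum of 400 genes and without the top 6% of the doublet score. CDK6 and CCND2 thus moved in opposite directions in both libraries. CDK6, E2F8, RBL1 and CCND2 lost their call after thinning before the gates, and RBL1 and CCND2 also after thinning behind them and without the library block. After thinning before the gates CCND2 stood at -1.80 ± 0.98, close to its value with all UMIs but with a wider error, while CDK6 stood at 0.99 ± 0.60, E2F8 at 1.03 ± 1.25 and RBL1 at 0.52 ± 0.61.

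**Figure D3:**
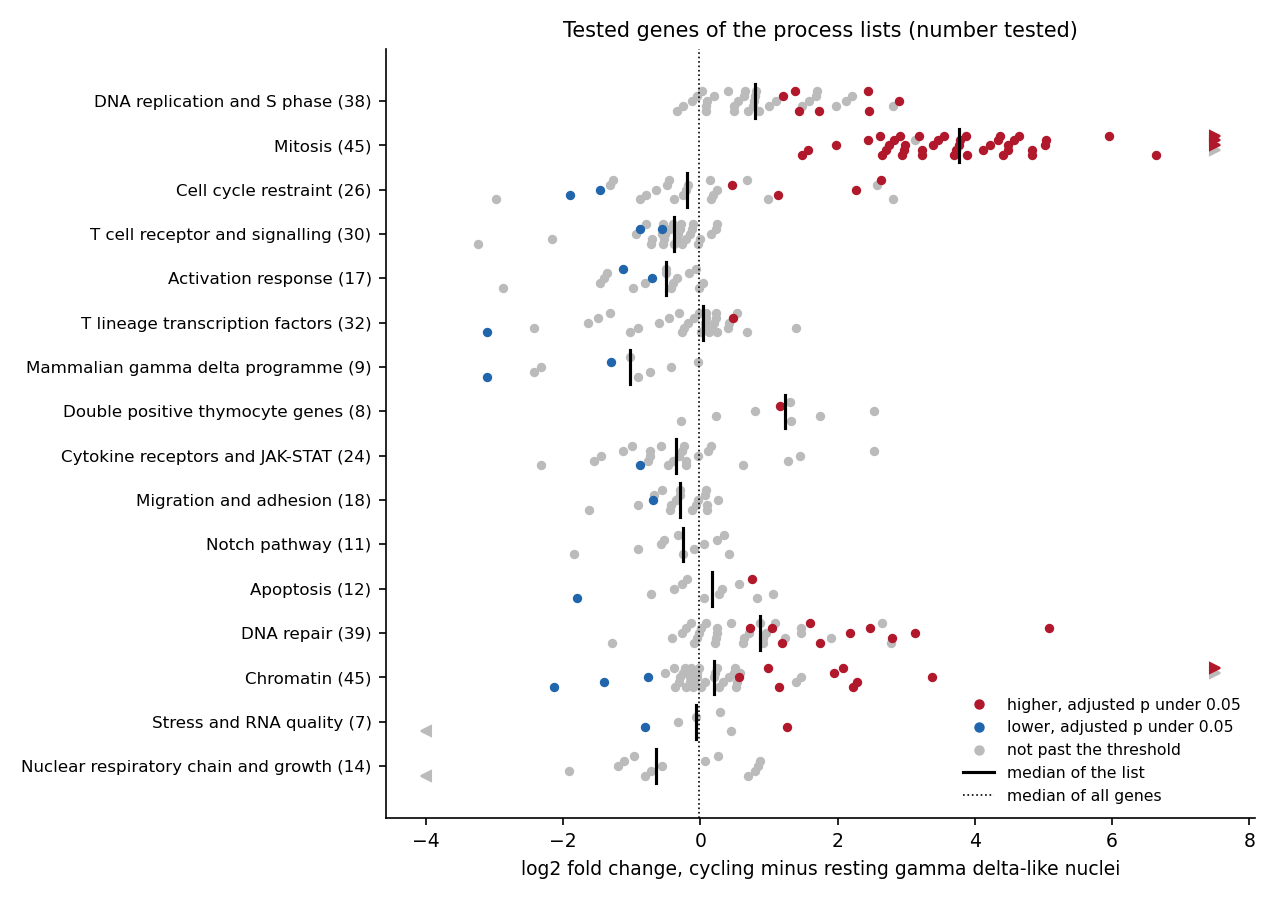
Log2 fold change, cycling minus resting γδ-like nuclei (x axis), of the tested genes of 16 process lists (rows, with the number tested), coloured red when higher, blue when lower and grey when not past the threshold. Black bars are list medians and the dotted line the median of all genes (-0.01); the mitosis list stood at 3.77 and S phase at 0.80, and 8 genes beyond -4 or 7.5, which had few UMIs on 1 side, are arrows at the edge.

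In the T cell receptor and its signalling, of 30 genes tested from a list of 36, 0 rose and 2 fell, with a median log2 change of -0.39. Among all genes tested, 3.03% rose and 1.11% fell. Here and in the activation response, a count of 2 genes is a result about those genes and not about the list. Besides LCP2, PTPRC (CD45), the phosphatase that sets the threshold of receptor signalling, was at 1116 and 1241 CPM in cycling and 1732 and 1842 CPM in resting nuclei (-0.56 ± 0.11, adjusted p = 0.0134). CD3E, a chain of the CD3 complex, was at 194 and 203 CPM in cycling and 242 and 505 CPM in resting nuclei and did not pass (adjusted p = 0.0715). It gained a call under 5 of 15 alternatives, among them thinning before the gates and leaving out the top 6% of the doublet score. SKAP1, an adaptor for adhesion, was at 1203 and 1122 CPM in cycling and 1573 and 1559 CPM in resting nuclei (adjusted p = 0.076). The gap in CD3E came mostly from library 2. Of 17 tested genes of the activation response, 0 rose and 2 fell, with a median of -0.50. These 2 encode NFAT factors, which calcium signals activate. NFATC2 was at 108 and 142 CPM in cycling and 303 and 283 CPM in resting nuclei (-1.13 ± 0.23, adjusted p = 0.0132), and NFATC3 at 266 and 291 CPM in cycling and 457 and 481 CPM in resting nuclei (-0.70 ± 0.17, adjusted p = 0.0372). TNFRSF9 (4-1BB), a receptor induced by activation, was at 21.6 and 64.2 CPM in cycling and 128 and 128 CPM in resting nuclei (adjusted p = 0.108). PTPRC, NFATC2 and NFATC3 lost their call after thinning before the gates, at -0.85 ± 0.29, -0.91 ± 0.64 and -1.07 ± 0.48 log2 units, NFATC2 and NFATC3 after thinning behind them, and NFATC3 without the library block.

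Of 32 tested T lineage transcription factors, 1 rose and 1 fell, with a median of 0.04. This is near the share over all genes, of which 3.03% rose and 1.11% fell. Here and in the lists below, a count of 1 gene is a result about that gene and not about its list. LEF1 (chromosome 4, 37449291 to 37503977), a factor of early thymocytes in the Wnt pathway, was at 5409 and 5256 CPM in cycling and 4122 and 3751 CPM in resting nuclei (0.47 ± 0.09, adjusted p = 0.0108). ID3 (chromosome 23, 2577964 to 2579597), which blocks E proteins and marks strong receptor signals in γδ thymocytes of mouse, had 0 and 3 UMIs in cycling nuclei and 3 and 27 UMIs in resting nuclei, a ratio of CPM of 0.113 (95% counting interval 0.0221 to 0.364) with adjusted p = 0.0421. LEF1 lost its call with a minimum of 400 genes and with either thinning, and ID3 with 7 of 14 alternatives. IKZF2 (Helios) was at 1692 and 1521 CPM in cycling and 1408 and 1104 CPM in resting nuclei (adjusted p = 0.0582) and MAF at 7.20 and 16.9 CPM in cycling and 41.1 and 101 CPM in resting nuclei (adjusted p = 0.0528), both outside the threshold. Each was near it, and IKZF2 gained a call under 3 and MAF under 6 of 15 alternatives.

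Of 23 genes that mark γδ effector programmes in mammals, 9 were tested, 0 rose and 2 fell, with a median of -1.03. Against 3.03% higher and 1.11% lower over all genes tested, these 2 falls are again a result about single genes. Besides ID3, BLK (chromosome 3, 107036625 to 107071749) fell, with a log2 change of -1.30 ± 0.27 (adjusted p = 0.0154), at the levels given above. Its cycling libraries lay below both resting libraries, and it lost its call without the library block and with either thinning (log2 change -2.00 ± 0.64 after thinning before the gates). CD44, an adhesion receptor of activated T cells, was at 713 and 777 CPM in cycling and 961 and 1101 CPM in resting nuclei (adjusted p = 0.108). Of the effector cytokines on the list, IL17A and IFNG had 0 UMIs in all γδ-like sums, and IL17F had 0 UMIs in cycling nuclei and 1 UMI in resting nuclei of library 1. The summed level of the list was 1073 and 1241 CPM in cycling nuclei and 1979 and 2175 CPM in resting nuclei. Markers of innate and mature lymphocytes were also at a lower sum on the cycling side, at 403 and 473 CPM against 894 and 667 CPM in resting nuclei, but 0 of 8 tested passed by edgeR or DESeq2 (4 at an unadjusted p under 0.05). KLF2, a factor of resting and emigrating T cells, had 1 UMI in each cycling library and 8 and 11 UMIs in the resting ones (adjusted p = 0.0808). GNLY (granulysin) was at 7.20 and 30.4 CPM in cycling and 46.3 and 111 CPM in resting nuclei (adjusted p = 0.097).

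Cytokine receptor and JAK-STAT genes gave 0 rises and 1 fall among 24 tested, with a median of -0.35. Here too the shares over all genes tested were 3.03% higher and 1.11% lower. STAT4, which transmits interleukin-12 signals, was at 187 and 247 CPM in cycling and 463 and 397 CPM in resting nuclei (-0.88 ± 0.20, adjusted p = 0.0249). JAK3, the kinase of the common γ chain receptors, was at 21.6 and 43.9 CPM in cycling and 77.1 and 125 CPM in resting nuclei (adjusted p = 0.0613). Migration and adhesion gave 0 rises and 1 fall among 18 tested, with a median of -0.30. DOCK2, which drives the motility of lymphocytes, was at 691 and 429 CPM in cycling and 941 and 842 CPM in resting nuclei (-0.69 ± 0.17, adjusted p = 0.0343), and RGS1, a brake on chemokine receptors, at 14.4 and 43.9 CPM in cycling and 113 and 101 CPM in resting nuclei (adjusted p = 0.0864). STAT4 lost its call with either thinning (-2.14 ± 0.64 before the gates) and DOCK2 with 5 of 15 alternatives. None of 11 tested Notch pathway genes passed by edgeR or DESeq2, 1 had an unadjusted p under 0.05, and their median was -0.25. LFNG, the glycosyltransferase that tunes Notch receptors, had 0 and 9 UMIs in cycling and 16 and 20 UMIs in resting nuclei (adjusted p = 0.144).

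Of 12 tested apoptosis genes, 1 rose and 1 fell, with a median of 0.17, beside 3.03% higher and 1.11% lower over all genes tested. BCL2 (chromosome 2, 67578119 to 67668149), which blocks apoptosis, was at 1347 and 1714 CPM in cycling and 1023 and 869 CPM in resting nuclei (0.76 ± 0.14, adjusted p = 0.00678). BMF, which acts against BCL2-type proteins, fell by 1.79 on the log2 scale (SE 0.29), at the levels given above. Both cycling libraries lay outside the range of the resting ones for the 2 genes. MCL1, another protector, was at 115 and 74.4 CPM in cycling and 128 and 168 CPM in resting nuclei (adjusted p = 0.412). BCL2 lost its call after thinning before the gates (0.30 ± 0.28) and BMF after thinning behind them.

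Genes of double positive thymocytes were at a higher sum on the cycling side, at 2953 and 4073 CPM against 2215 and 1414 CPM in resting nuclei. Of 8 tested of 13 listed, 1 rose and 0 fell, beside 3.03% higher and 1.11% lower over all genes tested, and the median was 1.24. ARPP21 (chromosome 2, 45276796 to 45464003), an RNA-binding protein of double positive thymocytes, was at 1570.1 and 2028 CPM in cycling and 976 and 704 CPM in resting nuclei (1.17 ± 0.16, adjusted p = 9.96e-04). In other thymocyte nuclei it was at 4195 and 4141 CPM on the cycling side and 3739 and 4460.0 CPM on the resting side, above every γδ-like value. DNTT, the terminal transferase that adds bases to receptor joints, was at 583 and 997 CPM in cycling and 612 and 374 CPM in resting nuclei, so that the sides overlapped (adjusted p = 0.103). CLGN was at 266 and 314 CPM in cycling and 185 and 26.9 CPM in resting nuclei, HMCN1 at 101 and 260.3 CPM in cycling and 97.6 and 70.7 CPM in resting nuclei and PLD5 at 295 and 209.6 CPM in cycling and 164 and 53.9 CPM in resting nuclei, with adjusted p = 0.055, 0.0768 and 0.108. Library 2 gave the larger gap in each of these 5 genes. Of the coreceptors on the list, CD8A stood at 0.23 ± 0.33 (adjusted p = 0.807) and CD4 at -0.28 ± 0.41 (adjusted p = 0.818). Neither passed, and they went in opposite directions, so the higher sum does not extend to both coreceptors. Without the nuclei of the top 6% of the doublet score ARPP21 rose by 1.12 (adjusted p = 5.03e-04), CLGN stood at 1.70 (adjusted p = 0.0478) and DNTT at 0.16 (adjusted p = 0.875). After thinning before the gates ARPP21 stood at 0.54 (adjusted p = 0.567) and DNTT at -1.27 (adjusted p = 0.303). Over 15 alternatives CLGN gained a call under 5, DNTT under 3 and HMCN1 and PLD5 under 2 each, and DNTT changed sign under 2. The part of depth and doublets beyond these values was not tested.

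Transcripts of stress and of other cell types gave few calls, beside 3.03% higher and 1.11% lower over all genes tested. Of 7 tested stress genes, HSP90AA1, a chaperone, rose, at 857 and 872 CPM in cycling and 319 and 411 CPM in resting nuclei (1.26 ± 0.19, adjusted p = 0.00206). After thinning before the gates it stood at 1.09 ± 0.34 (adjusted p = 0.0705). In the same list HSPA5, the chaperone of the endoplasmic reticulum, fell, at 418 and 270.4 CPM in cycling and 565 and 606 CPM in resting nuclei (-0.81 ± 0.20, adjusted p = 0.0414), which did not hold under 9 of 15 alternatives. None of 14 tested genes of the respiratory chain and growth passed by edgeR or DESeq2 (4 at an unadjusted p under 0.05), with a median of -0.64, and the amino acid transporter SLC7A5 was at 57.6 and 67.6 CPM in cycling and 128 and 172 CPM in resting nuclei (adjusted p = 0.143). Of the marker lists of other cells, none of the 2 tested B cell, 1 macrophage, 5 dendritic, 2 epithelial and 1 stromal markers passed by edgeR or DESeq2, and 0 had an unadjusted p under 0.05. No erythroid marker was tested. HBBA and HBA1 are gate genes and were kept out of the test, and the other erythroid markers in the files did not reach the filter. Without gate genes, the summed levels of these lists were 36.0 and 30.4 CPM in cycling against 72.0 and 80.8 CPM in resting nuclei for B cells, 28.8 and 74.4 against 51.4 and 53.9 CPM for macrophages, 309.7 and 429 against 468 and 488 CPM for dendritic cells, 0 and 23.7 against 5.14 and 37.0 CPM for epithelium, 7.20 and 91.3 against 25.7 and 10.1 CPM for erythroid cells, and 93.6 and 98.0 against 108 and 141 CPM for stroma. At 0 in all γδ-like sums were 4 of 9 B cell markers, 2 of 9 macrophage, 1 of 10 dendritic, 3 of 10 epithelial, 1 of 7 erythroid and 5 of 13 stromal markers in the files. The markers in the files include the gate genes EBF1, MARCO, CSF1R, FLT3, PAPPA, EPCAM, HBBA and HBA1. These were left out of the sums and were not examined for a level of 0. The γδ-like gate did not require them to be at 0, and their γδ-like levels are not given.

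Divided further by their cycling sum, the γδ-like nuclei held graded levels of the mitosis list, which follows from the gate, at 1778, 3640, 7395 and 13156 CPM in library 1 and 1189, 3323, 5951 and 13642 CPM in library 2 for sums of 0, 1, 2 to 3, and 4 or more. These bins held 226, 30, 24 and 62 nuclei in library 1 and 275, 29, 43 and 95 in library 2. The S phase list was at 2714, 3997, 6730 and 4391 CPM in library 1 and 2084, 4034, 4895 and 4461 CPM in library 2. Its highest value stood at a sum of 2 to 3 in both libraries. The T cell receptor list was at 14786, 10134, 12796 and 11195 CPM in library 1 and 16020.0, 14325, 12156 and 11775 CPM in library 2, highest where the sum was 0. The mammalian γδ list was likewise highest at a sum of 0 in both libraries, at 1979 and 2175 CPM. The double positive list had its highest value at a sum of 1 in library 1 (5495 CPM) and at 4 or more in library 2 (4527 CPM). These levels are a description, with no test.

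**Figure D4:**
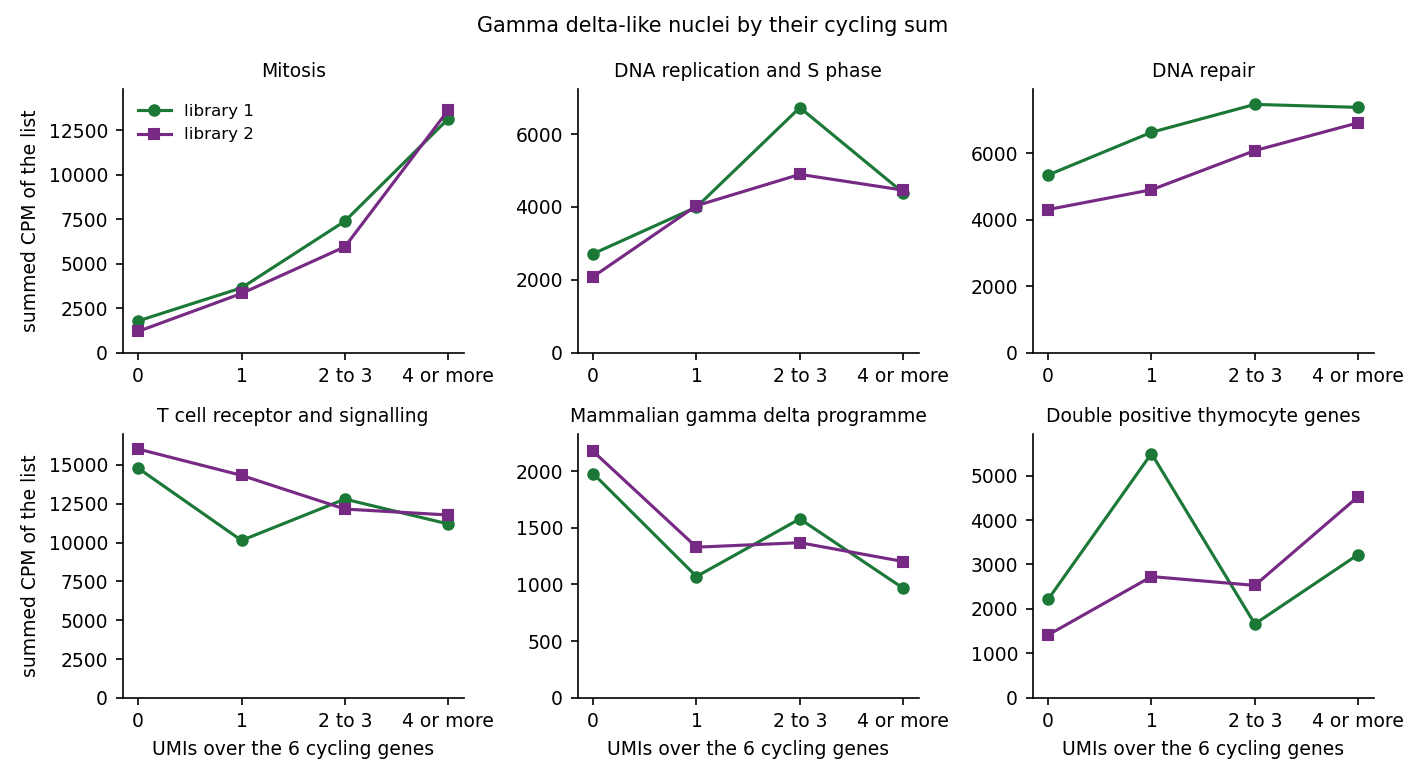
Summed level (y axis, CPM, from 0) of 6 gene lists in γδ-like nuclei with 0, 1, 2 to 3, and 4 or more UMIs of the 6 cycling genes (x axis), for library 1 (green circles) and library 2 (purple squares). The mitosis list climbed to 13156 and 13642 CPM, the S phase list stood highest at a sum of 2 to 3, and the T cell receptor and mammalian γδ lists stood highest at a sum of 0.

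Most genes that moved with the cycle in γδ-like nuclei also moved in other thymocyte nuclei. There, 1619 of the 8543 genes passed (19.0%), 853 higher (9.98%) and 766 lower (8.97%) on the cycling side, from sums of 943 and 765 cycling and 3245 and 3711 resting nuclei with more UMIs. Of the 259 genes that rose in γδ-like nuclei, 229 rose in other thymocytes too, 88.4% of the γδ-like and 26.8% of the other thymocyte calls. Of the 95 that fell, 79 fell there too, 83.2% of the γδ-like and 10.3% of the other thymocyte calls. The 2 populations share no nucleus but share the gate and the libraries. The genes with calls of opposite direction were ADAMTS3 and MGAT5.

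The difference of the 2 effects was tested directly, as the γδ-like change minus the change in other thymocytes. By edgeR it passed for 15 genes (0.176%), 12 higher (0.14%) and 3 lower (0.0351%), with 655 at an unadjusted p under 0.05. DESeq2 called 43 genes, 14 of them among these 15. The calls depended on the settings. Without the library block 1 gene passed, FSTL4, and after thinning before the gates 0 passed by edgeR, with 326 of 4909 genes at an unadjusted p under 0.05. With other thymocyte nuclei required to have a UMI of RAG1, 50 genes passed, 10 of them among the 15.

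FSTL4 and MGAT5 had a lower effect in γδ-like nuclei. FSTL4 was at 663 and 699.7 CPM in cycling and 108 and 90.9 CPM in resting γδ-like nuclei, against 1234 and 1207 CPM in cycling and 32.5 and 39.3 CPM in resting other thymocyte nuclei. Its difference of effect was -2.24 ± 0.27 (adjusted p = 0.00749). It rose in both populations, and less in γδ-like nuclei. MGAT5 (chromosome 7, 29842221 to 29953595), which adds branches to N-glycans and raises the threshold of T cell receptor signalling in mouse, was at 576 and 429 CPM in cycling and 827 and 859 CPM in resting γδ-like nuclei, against 404 and 376 CPM in cycling and 202 and 188 CPM in resting other thymocyte nuclei. It fell in γδ-like nuclei, with a log2 change of -0.75 ± 0.15 (adjusted p = 0.0138), rose in other thymocytes, with 1.00 ± 0.13 (adjusted p = 1.02e-04), and differed between them by -1.76 ± 0.20 (adjusted p = 0.00749). FSTL4 kept its difference under 14 and MGAT5 under 13 of 15 alternatives, both without it after thinning before the gates and MGAT5 also without the library block (adjusted p = 0.0648).

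The 5 named genes with a higher effect in γδ-like nuclei were SMC4, CSRNP1, MAML2, HIVEP3 and SAT1. SMC4 (chromosome 9, 21869868 to 21903241), the condensin partner of SMC2, was at 1116 and 1514 CPM in cycling and 406 and 303 CPM in resting γδ-like nuclei, against 1736 and 1860.0 CPM in cycling and 1188 and 1304 CPM in resting other thymocyte nuclei. It rose by 1.97 ± 0.17 in γδ-like nuclei (adjusted p = 2.32e-05) and by 0.53 ± 0.12 in other thymocytes (adjusted p = 0.00862), a difference of 1.44 ± 0.21 (adjusted p = 0.0171). The resting γδ-like level lay below each of the other 3 groups. CSRNP1 (chromosome 2, 5250036 to 5263504), a nuclear protein induced by AXIN1 in human cells, was at 194 and 260.3 CPM in cycling and 97.6 and 67.3 CPM in resting γδ-like nuclei, against 374 and 396 CPM in cycling and 453 and 504 CPM in resting other thymocyte nuclei. It rose in γδ-like nuclei, by 1.59 ± 0.26 (adjusted p = 0.00324), stood at -0.31 ± 0.13 in other thymocytes (adjusted p = 0.135) and differed by 1.89 ± 0.29 (adjusted p = 0.0213).

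For MAML2, HIVEP3 and SAT1 the difference came with a fall in other thymocytes and no call in γδ-like nuclei. MAML2 (chromosome 1, 184813166 to 185025438), a coactivator of Notch, was at 569 and 490.1 CPM in cycling and 549.9 and 488 CPM in resting γδ-like nuclei, against 771 and 647 CPM in cycling and 1715 and 2016 CPM in resting other thymocyte nuclei. Its change was 0.05 ± 0.17 in γδ-like nuclei (adjusted p = 0.929) and -1.40 ± 0.12 in other thymocytes (adjusted p = 3.72e-06), a difference of 1.45 ± 0.21 (adjusted p = 0.0171). HIVEP3 (chromosome 23, 1079261 to 1296431), a zinc finger factor of T cells, was at 439 and 771 CPM in cycling and 637 and 498 CPM in resting γδ-like nuclei, against 257 and 248 CPM in cycling and 1088 and 796 CPM in resting other thymocyte nuclei, a difference of 2.12 ± 0.31 (adjusted p = 0.0171). SAT1 (chromosome 1, 118428884 to 118431715), which acetylates polyamines for export, was at 28.8 and 115 CPM in cycling and 51.4 and 70.7 CPM in resting γδ-like nuclei, against 80.8 and 158 CPM in cycling and 396 and 746 CPM in resting other thymocyte nuclei, a difference of 2.65 ± 0.39 (adjusted p = 0.0171). In γδ-like nuclei the 2 sides overlapped for all 3 genes. None of the 5 kept its difference without the library block or after thinning before the gates. HIVEP3 lost it also with RAG1 required in other thymocyte nuclei, where its difference was 0.71 (adjusted p = 0.728). With a minimum of 400 genes, SMC4, MAML2, SAT1 and CSRNP1 lost it (adjusted p = 0.202, 0.372, 0.263 and 0.184). MAML2, SAT1 and CSRNP1 lost it also without the top 6% of the doublet score (adjusted p = 0.109, 0.157 and 0.202) and after thinning behind the gates. CSRNP1 lost it with a marker sum of 3 or more too. The difference held under 12 of 15 alternatives for SMC4 and HIVEP3, 10 for MAML2 and SAT1 and 9 for CSRNP1.

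**Figure D5:**
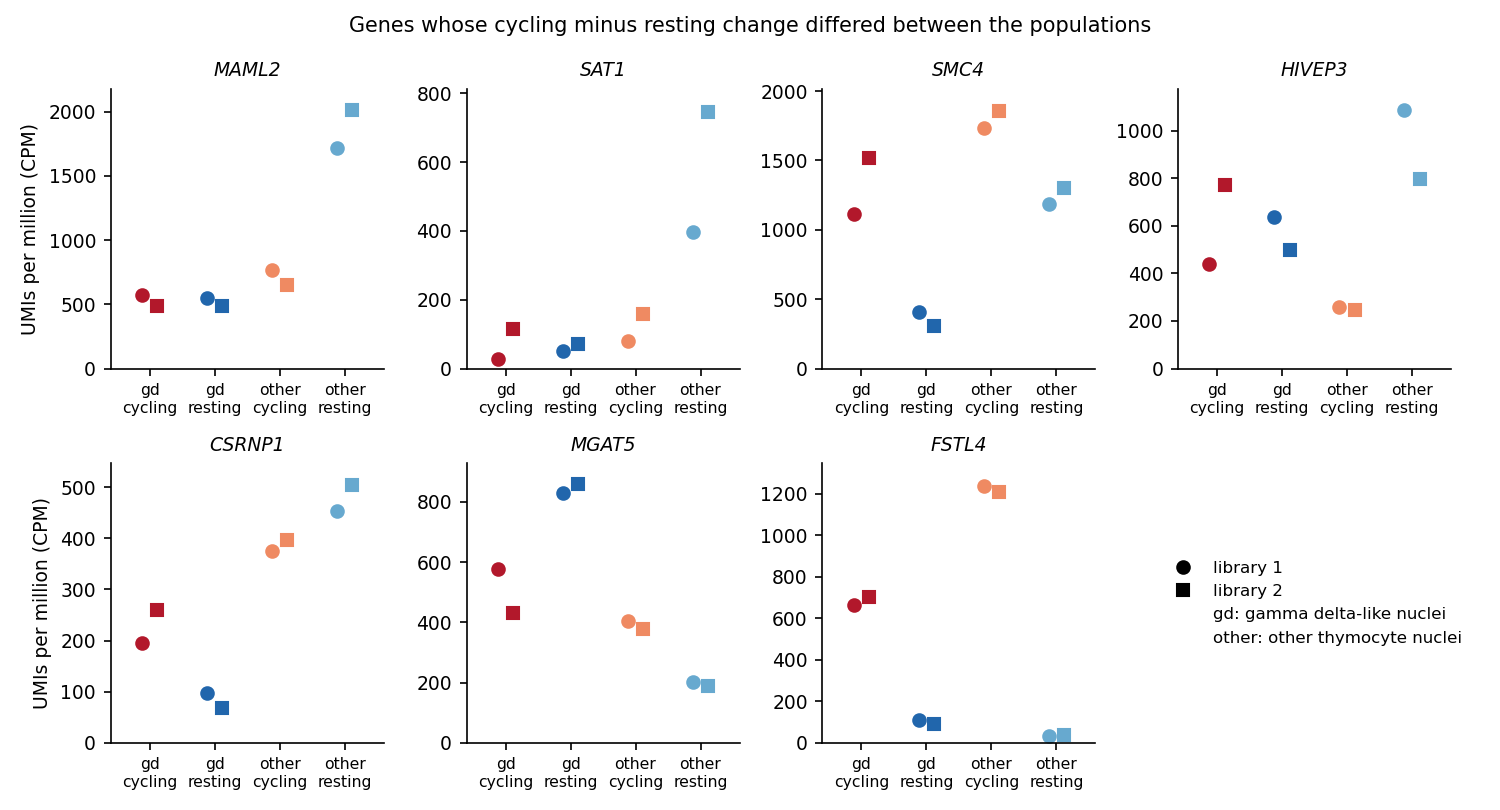
Level (y axis, CPM, from 0) of the 7 genes named for a different cycling effect, in cycling and resting γδ-like (gd) and cycling and resting other thymocyte nuclei (x axis) of library 1 (circles) and library 2 (squares). MGAT5 stood at 576 and 429 CPM in cycling and 827 and 859 CPM in resting γδ-like nuclei and the other way round in other thymocyte nuclei, while MAML2 stood at 569 and 490.1 CPM in cycling and 549.9 and 488 CPM in resting γδ-like nuclei.

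Few list genes passed the test of the difference by edgeR. They were SMC4 of the mitosis list, CD5 of the T cell receptor list, MAML2 of the Notch list and HIVEP3 of the T lineage transcription factors. The medians of the S phase, repair and mitosis lists, with 38, 39 and 45 genes tested, were 0.80, 0.87 and 3.77 in γδ-like nuclei and 1.60, 1.12 and 4.55 in other thymocyte nuclei. S phase calls numbered 7 in γδ-like nuclei and 25 in other thymocyte nuclei, and T cell receptor falls 2 and 19, with sums of very different depth. Calls were also more frequent in other thymocyte nuclei over all genes tested. There 9.98% rose and 8.97% fell, against 3.03% and 1.11% in γδ-like nuclei. These counts are therefore not a result about the 2 lists. The part of depth in these counts was not tested. Of the other called differences with a symbol, named after their values were seen, SOX6, a relative of SOX13, was at 122 and 101 CPM in cycling and 25.7 and 40.4 CPM in resting γδ-like nuclei, against 8.69 and 4.62 CPM in cycling and 31.2 and 47.7 CPM in resting other thymocyte nuclei, a difference of 4.28 ± 0.67 (adjusted p = 0.0215). CD5, which dampens T cell receptor signals, was at 64.8 and 125 CPM in cycling and 87.4 and 162 CPM in resting γδ-like nuclei, against 31.3 and 65.4 CPM in cycling and 208 and 309.9 CPM in resting other thymocyte nuclei (adjusted p = 0.0348). SOX6 was higher on the cycling side in both γδ-like libraries, without passing the test there (adjusted p = 0.08), and fell in other thymocytes (adjusted p = 0.00134). ADAMTS3, a metalloprotease, was at 173 and 193 CPM in cycling and 87.4 and 13.5 CPM in resting γδ-like nuclei, against 406 and 344 CPM in cycling and 637 and 724 CPM in resting other thymocyte nuclei (adjusted p = 0.0348). The remaining gene, FAM53A, differed by 0.92 ± 0.16 (adjusted p = 0.037). Of the alternatives that gave a value, SOX6 kept its difference in 9 of 13, CD5 and ADAMTS3 in 10 of 15 each and FAM53A in 6 of 15, and ADAMTS3 and FAM53A lost it without the shared barcodes.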

How the data were processed

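For both thymus libraries the authors deposited UMI counts as whole numbers, not normalized, in a matrix of genes by barcodes. Cell Ranger 7.0.1, Scanpy 1.9.1 and the build GRCg7b are listed, per the submitters' processing notes. File names refer to CellBender, which removes UMIs of free RNA, so a 0 can reflect that removal; no source used here gives its settings. The annotation was limited to protein-coding and lncRNA genes, per the labels, which also name more than 1 kit version and sequencer without tying them to a library. The matrices hold 28951 genes, 12907 with a symbol. Positions are from RefSeq for GRCg7b, matched by symbol.

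Barcodes with under 200 genes were left out, 1393 and 476. Doublets were scored with 2 simulated doublets per nucleus and 50 neighbours, and kept unless stated. Other thymocyte nuclei had at least 200 genes and SOX13, FOXN1, PAX5, EBF1, MARCO, CSF1R, FLT3, PAPPA, EPCAM, HBBA and HBA1 at 0. UMIs were summed per library, population and side into 8 sums and tested with edgeR 4.0.16 in R 4.3.3 (TMM, filterByExpr, glmQLFit, glmQLFTest, two-sided, 3 residual degrees of freedom). The library is a block because both sides of a library come from that library. The 23 gate genes stayed in library sizes and out of tests. Alternatives included DESeq2 1.42.0. Without 1 library no residual degrees of freedom remain, so single-library values (prior count 2) have no test. The fit was tested on simulated data.

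Named genes are the 15 with a symbol and the smallest p in each direction with 1 sign in both libraries, the 5 in each direction for the difference, and up to 5 of each of 23 lists. The members, lists and rules were chosen with earlier results of these data known. Of the genes that rose, 1 is not reported here. FOXP1, CD4 and CD8A are outside this rule and were named after their values were seen. Folds use a floor of 3 counts where a group is at 0.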

Additional observations from a re-analysis of the deposited data

Results flagged for a closer look

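Each of the 7 genes named for a different cycling effect is listed because the difference between γδ-like and other thymocyte nuclei passed the test itself, by edgeR's quasi-likelihood interaction with Benjamini-Hochberg adjustment. All values are log2 differences ± SE, γδ-like minus other thymocyte. In 5 genes the γδ-like effect was higher, at 1.45 ± 0.21 for MAML2 (adjusted p = 0.0171), 2.65 ± 0.39 for SAT1 (adjusted p = 0.0171), 1.44 ± 0.21 for SMC4 (adjusted p = 0.0171), 2.12 ± 0.31 for HIVEP3 (adjusted p = 0.0171) and 1.89 ± 0.29 for CSRNP1 (adjusted p = 0.0213). In the other two it was lower, at -1.76 ± 0.20 for MGAT5 (adjusted p = 0.00749) and -2.24 ± 0.27 for FSTL4 (adjusted p = 0.00749). After thinning each nucleus to 500 UMIs before the gates none of the 7 passed by edgeR, at 0.01 for MAML2, 4.06 for SAT1, 1.44 for SMC4, 1.81 for HIVEP3, -0.16 for CSRNP1, -1.45 for MGAT5 and -2.01 for FSTL4.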

How the results depend on the processing

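Thinning each nucleus to 500 UMIs before the gates gave the fewest calls between cycling and resting γδ-like nuclei. It left 83 cycling γδ-like nuclei and 4909 tested genes, and gave 59 genes higher and 36 lower in cycling γδ-like nuclei (259 and 95 with all UMIs), with 613 at an unadjusted p under 0.05 and a median of all genes at -0.20. The share of called genes that were higher was then 62.1%, against 73.2% with all UMIs. Values that changed sign were 0.46 for SKI, -0.38 for FANCI, -0.10 for FOXP1, -1.27 for DNTT, -0.15 for PLD5, 0.14 for TNFRSF9 and -0.16 for the difference of CSRNP1. The cause was not tested. Thinning after the gates gave 158 higher and 48 lower, and no low count filter gave 428 higher.

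The library pairs the sides, since both come from it. Without this replicate block 192 genes were higher and 46 lower, 80.7% of calls being higher, and the difference of effects passed for 0 genes higher and 1 lower (522 at an unadjusted p under 0.05).

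The other counts of the difference, 12 higher and 3 lower, were 32 and 11 with DESeq2, 76 and 17 without the filter, 38 and 12 with RAG1 required in other thymocyte nuclei, and 0 and 0 by edgeR after thinning before the gates. Genes higher numbered 19 with 5 S phase genes also at 0 on the resting side, 7 with at least 400 genes, 7 without the top doublet scores and 4 after thinning behind the gates. The mean cycling share of γδ-like nuclei, 28.2%, was 35.9% for a cycling sum of at least 1, 23.8% for at least 3 and 18.0% after thinning before the gates, and 25.1% to 31.2% in single libraries. Leaving out 1 library leaves no test; DNTT then ranged from -0.017 to 1.43. With 2 libraries no exact permutation test of a share can pass.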
